A study of Mus musculus with 20 samples.

Results

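CC chemokines are small secreted proteins that draw leukocytes out of the blood along a concentration gradient, and they act through G protein-coupled receptors named Ccr. Ligands can share a receptor: Ccl2, Ccl7 and Ccl12 are ligands of Ccr2 on monocytes, Ccl17 binds Ccr4, and Ccl20 binds Ccr6. In the kidney, tubular cells, endothelium and resident macrophages can release them after ischemia, and monocytes and neutrophils enter the tissue within hours of reperfusion.

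The genes described here are 10 CC chemokines of the mouse, namely Ccl2, Ccl3, Ccl4, Ccl5, Ccl6, Ccl7, Ccl8, Ccl12, Ccl17 and Ccl20, taken by their gene names from the 27827 gene names on the array. They were measured in kidney RNA of male C57BL/6 mice aged 8 to 12 weeks, on 20 one-color arrays, 4 in each of 5 groups. By the labels, Control mice had neither surgery nor drug, and no group is described as sham-operated. IRI stands for ischemia-reperfusion injury, 45 min of clamping of both renal pedicles followed by 6 h of reperfusion. IRI+Hemin mice received 25 mg/kg of Hemin, an inducer of heme oxygenase 1, intraperitoneally 24 h before the same surgery, and Hemin mice received the drug alone. IPC+IRI mice had an earlier ischemia of 15 min, 7 days before the injury (ischemic pre-conditioning). The comparisons ask which CC chemokines respond to the injury and whether either maneuver goes with another level. The labels number the replicates but do not say that each array is a separate animal, so p-values measure the spread between arrays, which may be technical.

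Each value below is the log2 of the processed signal over the 75th percentile of its array, called log2 expression, so that 0 lies at that percentile. It ranks arrays for 1 gene and not genes against each other. Differences come from limma on all 20 arrays. Called means a Benjamini-Hochberg value under 0.05, with every tested gene of the array in the adjustment. A gene entered a comparison when the scanner software marked it well above background on at least 3 of 4 arrays in either group. Between 57.4% and 67.4% of gene names passed that mark on an array, and the median correlation of an array with the others of its group was between 0.975 and 0.992. The 5 groups occupied 5 slides, 1 group per slide, and the effects of slide and group cannot be told apart. Scans were made on 3 days, the first holding Control and IRI, the second IRI+Hemin, and the third the other two groups. Markers of the proximal tubule, thick limb and distal tubule, collecting duct, podocytes and endothelium, 12 genes, were well above background on all 20 arrays, and some of them moved with injury. In IRI vs Control 2 of 4 proximal tubule markers fell (Lrp2 by 0.95 and Cubn by 0.54), and Aqp2 of the collecting duct rose by 1.23. Among all genes tested, 33.9% were called lower and 17.1% higher in that comparison. Of the 4 proximal tubule markers 3 were lower in IRI+Hemin and 2 in IPC+IRI than in Control, against 33.2% and 32.7% of all genes tested.

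The signal of each gene comes from 60-base probes. Ccl2 had 1 probe printed in 10 spots, Ccl5 and Ccl7 had 2 probes each, and the other 7 genes had 1 probe with 1 spot. The first 30 bases of the probes are shown for Ccl2, for both probes of Ccl5 and of Ccl7, and for Ccl8 and Ccl12, because the later results rest on whether probes of one gene move together and whether related genes could share signal.
Ccl2, A_51_P286737, chr11:81850650-81850709, plus strand: tgtaggagtgaccagtgtgacagtgaacta
Ccl5, A_51_P485312, chr11:83339447-83339502, minus strand: atcaactatttggagatgagctaggataga
Ccl5, A_52_P638459, chr11:83339296-83339355, minus strand: tctcagctgctccgaggctctgcacagcaa
Ccl7, A_51_P436652, chr11:81860656-81860715, plus strand: ttctgagaactgttgatgaaatgtgttgat
Ccl7, A_52_P208763, chr11:81860504-81860563, plus strand: gcatggaagtctgcgctgaagcccatcaga
Ccl8, A_51_P464703, chr11:81930108-81930167, plus strand: accagaagtctcaaattctgcagccttgaa
Ccl12, A_52_P249514, chr11:81916710-81916769, plus strand: tccttgaaccttcatgtctaggctgagagt
Coordinates are those of the array annotation (mm9). Of the other genes, Ccl17 lies on chromosome 8 and Ccl20 on chromosome 1, and Ccl3, Ccl4 and Ccl6 lie on chromosome 11 with the 5 genes above. The longest run of bases shared by probes of different genes was 13 bases, between Ccl8 and Ccl12, and no other pair shared more than 8.

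For the 3 genes that passed a test and have an entry in the RefSeq promoter table (GRCm38.p6), the 250 bases before the start are given, with motif matches in capitals. The table holds 6 of the 10 genes.
Ccl6, chr11:83593088-83593337, minus strand: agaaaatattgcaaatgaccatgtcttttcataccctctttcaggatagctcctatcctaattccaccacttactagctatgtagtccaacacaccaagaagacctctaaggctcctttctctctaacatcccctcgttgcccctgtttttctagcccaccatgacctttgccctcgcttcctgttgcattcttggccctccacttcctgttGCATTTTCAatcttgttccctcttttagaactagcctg
Ccl12, chr11:82101595-82101844, plus strand: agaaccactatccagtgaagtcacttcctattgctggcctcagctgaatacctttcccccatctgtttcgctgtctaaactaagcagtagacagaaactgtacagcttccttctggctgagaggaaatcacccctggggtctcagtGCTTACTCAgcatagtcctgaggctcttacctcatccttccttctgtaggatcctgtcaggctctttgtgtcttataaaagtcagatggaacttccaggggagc
Ccl17, chr8:94810203-94810452, plus strand: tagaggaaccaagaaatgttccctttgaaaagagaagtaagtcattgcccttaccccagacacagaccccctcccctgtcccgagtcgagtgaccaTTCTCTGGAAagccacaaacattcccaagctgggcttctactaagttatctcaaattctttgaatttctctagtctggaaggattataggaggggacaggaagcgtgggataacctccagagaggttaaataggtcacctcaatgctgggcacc
The letters searched on both strands were GGG and TTTCC with any 2 bases between them (kappaB), TGANTCA (AP-1), TTC and GAA with any 4 between (STAT), GAAA and GAAA with any 2 between (interferon regulatory factors), and TGA and GC with any 4 between (antioxidant response), of which the last can overlap the AP-1 letters. Ccl17 held a STAT match, which 5.85% of the 32851 promoters in the table hold. Ccl6 and Ccl12 each held an antioxidant response match, found in 35.2% of all promoters. The kappaB letters, present in 1.41% of promoters, and the AP-1 and interferon letters, present in 6.75% and 2.98%, had no match in these 3 windows.

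Ccl2, a main attractant of monocytes, rose in all 3 injured groups, and rose less in both treated groups than in IRI alone. Log2 expression was -2.93, -2.61, -3.31 and -2.44 in Control and -2.84, -2.67, -1.94 and -2.71 in Hemin. It was 2.61, 1.79, 1.74 and 1.91 in IRI. The lowest IRI array therefore lay above every array of the other 4 groups. IRI+Hemin gave -0.53, 0.79, -0.25 and -0.22, and IPC+IRI gave -1.48, 1.49, 0.72 and -0.11. All arrays of these 2 groups were higher than those of Control and Hemin and lower than those of IRI, and the 2 groups overlapped each other. All 20 arrays were well above background, and the 9 or 10 usable spots of an array varied with a median SD of 0.08 on the log2 scale.

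In IRI vs Control, Ccl2 was 28.5-fold higher, a difference of 4.83 ± 0.45 (SE, limma, adjusted p = 2.26e-07). The difference was 2.98 ± 0.46 in IPC+IRI vs Control (adjusted p = 3.41e-05) and 2.77 ± 0.46 in IRI+Hemin vs Control (adjusted p = 6.35e-05). Against IRI, Ccl2 was 3.62-fold lower in IPC+IRI (adjusted p = 0.00321) and 4.18-fold lower in IRI+Hemin (adjusted p = 0.00146). Without IPC+IRI replicate 1, the lowest array of its group, the difference from IRI was -1.31 (adjusted p = 0.00899). The difference between both treated groups was 0.21, with a 95% confidence interval from -0.75 to 1.16. Hemin alone differed from Control by 0.28, with an interval from -0.68 to 1.24 (adjusted p = 0.66). SAM, a permutation-based test, was run here on the scaled and filtered values. It gave no call of Ccl2 for IPC+IRI against IRI, Control or Hemin. The methods' t-test after Benjamini-Hochberg gave none for IPC+IRI against IRI (adjusted p = 0.0797).

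**Figure D1:**
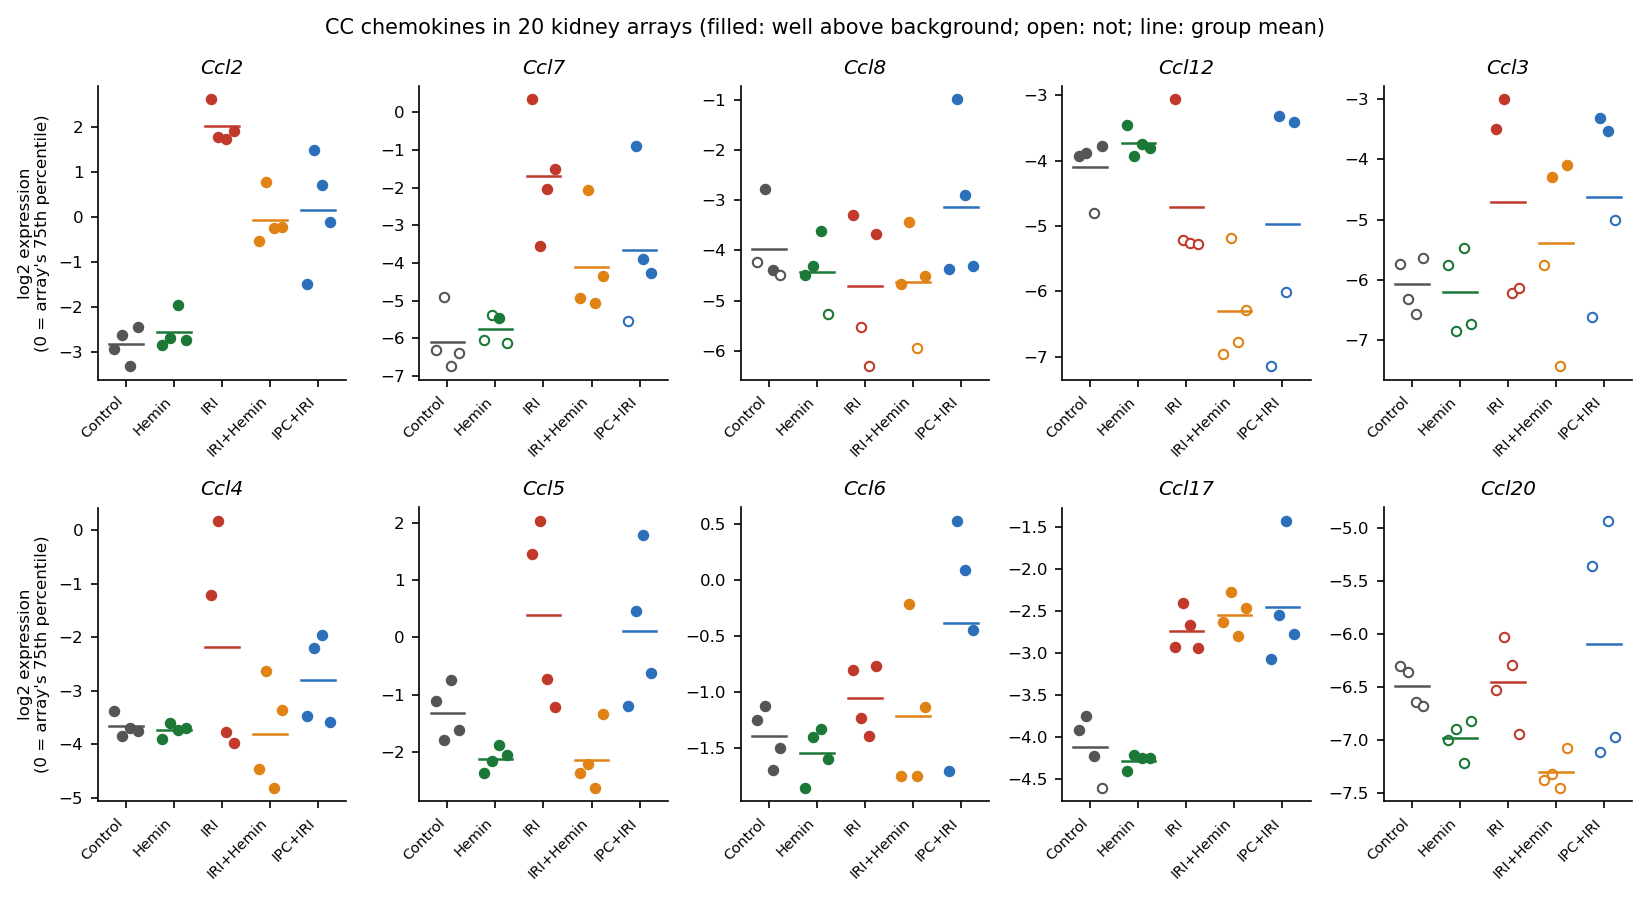
Log2 expression of the 10 CC chemokines on every array, by group (columns) with 1 panel per gene. Filled points are well above background, open points are not, and lines are group means. Ccl2 lies between 1.74 and 2.61 on the 4 IRI arrays, between -1.48 and 1.49 in IPC+IRI and IRI+Hemin, and at or below -1.94 in Control and Hemin, while Ccl20 has no filled point.

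Ccl7, a further monocyte attractant beside Ccl2 on chromosome 11, was not well above background on any Control array. IRI arrays gave 0.35, -3.54, -2.03 and -1.50, widely spread but all above the Control arrays. IRI+Hemin gave -4.92, -2.07, -5.06 and -4.34, and IPC+IRI gave -5.53, -0.89, -3.90 and -4.26, where the first was not well above background. In Hemin 1 of 4 arrays, at -5.46, was above it. Since Control gives only a limit, Ccl7 was at least 8.10-fold higher in IRI (adjusted p = 0.000452, limma). It was at least 2.08-fold higher in IPC+IRI, with 3 of 4 arrays measured (adjusted p = 0.0248). IRI+Hemin, at least 1.52-fold higher, did not pass the test (adjusted p = 0.0609), but passed without normalization (0.0216), after quantile normalization (0.0233), in a fit of the compared arrays alone (0.0347) and without Control replicate 2 (0.0395).

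Between injured groups, Ccl7 was 5.33-fold lower in IRI+Hemin than in IRI (difference -2.42 ± 0.88, SE, adjusted p = 0.0323), and the ranges overlapped. That call was lost when any 1 of 5 arrays was left out, with an adjusted p of 0.122 without IRI replicate 1. It was also lost without normalization (0.0589), with the deposited matrix (0.0791), in a fit of the compared arrays alone (0.0563), in SAM and in the methods' t-test. The difference of -1.96 in IPC+IRI vs IRI did not pass the test (adjusted p = 0.0764). It passed without IPC+IRI replicate 2 (-2.88, adjusted p = 0.00697) or without IRI replicate 2 (-2.58, adjusted p = 0.0278). The call in IPC+IRI vs Control was lost without IPC+IRI replicate 2 (adjusted p = 0.111) or without Control replicate 1, 3 or 4. It was also lost after normexp background correction (0.31, adjusted p = 0.49), in SAM and in the methods' t-test. Both probes of Ccl7 had a lower mean in IRI+Hemin than in IRI. Neither was well above background on any Control array, so their differences from Control are not given.

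Markers of endothelium and of macrophages and monocytes also differed between these groups. The 2 endothelium markers, Pecam1 and Cdh5, with most of each sum from Cdh5, summed to between 2.37 and 3.17 times the 75th percentile in IRI, above every array of the other groups, which lay between 0.92 and 1.59 in Control, 0.86 and 1.81 in IRI+Hemin, 0.55 and 1.51 in IPC+IRI and 0.63 and 1.03 in Hemin. Cdh5, the endothelial cadherin, rose by 1.39 in IRI vs Control (adjusted p = 0.000409, limma), and Pecam1 gave 0.63 (adjusted p = 0.132). Both were lower in IPC+IRI than in IRI, Cdh5 by 1.54 and Pecam1 by 1.16, and Cdh5 was lower in IRI+Hemin than in IRI, by 1.30. Neither was called in IPC+IRI or IRI+Hemin vs Control. The 7 macrophage and monocyte markers summed to between 63.1 and 101 in IRI, 57.4 and 66.3 in Control, 52.6 and 73.2 in IRI+Hemin, 63.9 and 90.1 in IPC+IRI and 59.5 and 66.5 in Hemin. These sums are mostly the signal of Ly6c2, so they say little of the other 6 markers. Of the 6 tested in IRI vs Control, Cd68, of the lysosomes of macrophages, rose by 2.23 and Ly6c2 by 0.46. Cx3cr1 was lower and was not well above background on any IRI array. Adgre1 was not called, though its IRI arrays, from -3.27 to -2.82, lay below every Control array. Among all genes tested there, 17.1% were called higher and 33.9% lower. Against IRI, Cd68 was lower in IPC+IRI, by 0.82, and Ly6c2 in IRI+Hemin, by 0.45. Adgre1, Itgam and Lyz2 were higher in IPC+IRI than in IRI. Among all genes tested, 26.3% were called higher and 17.9% lower in IPC+IRI vs IRI, and 18.1% lower in IRI+Hemin vs IRI. The part of these markers in the levels of Ccl2 and Ccl7 was not tested, and in whole tissue fewer cells of a type and less RNA per cell cannot be told apart.

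Ccl12 went the other way. This mouse relative of Ccl2 gave -3.93, -3.88, -4.80 and -3.77 in Control, where the third was not well above background, and -3.45, -3.93, -3.75 and -3.81 in Hemin. None of the 4 IRI+Hemin arrays, from -6.96 to -5.18, was well above background. Ccl12 was therefore at least 2.26-fold lower in IRI+Hemin than in Control (adjusted p = 0.0118, limma) and at least 2.90-fold lower than in Hemin (adjusted p = 0.0066). In IRI only replicate 1, at -3.06, was well above background, and the other 3 lay between -5.28 and -5.21. IPC+IRI was split in the same manner, with -3.32 and -3.40 well above background and -7.15 and -6.01 not. Neither IRI nor IPC+IRI differed from Control by the test (adjusted p = 0.487 and 0.298). Both calls of IRI+Hemin were lost after normexp with an offset. The log2 differences were then -0.56 against Control (adjusted p = 0.0677) and -0.30 against Hemin (adjusted p = 0.432).

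Ccl8, which also recruits monocytes, was not tested in IRI vs Control, where 2 of 4 arrays in each group were well above background, and was not called in the other comparisons. Its values ran from -6.31 to -3.30 in IRI, and from -4.37 to -0.99 in IPC+IRI, with all 4 above. IPC+IRI replicate 2 was the highest array for Ccl8 at -0.99, as it was in IPC+IRI for Ccl2, Ccl6 and Ccl7. IPC+IRI vs IRI did not pass the test (adjusted p = 0.10) and passed without IRI replicate 1 (adjusted p = 0.0482), and no fold is given because 2 of the IRI arrays were not well above background.

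**Figure D2:**
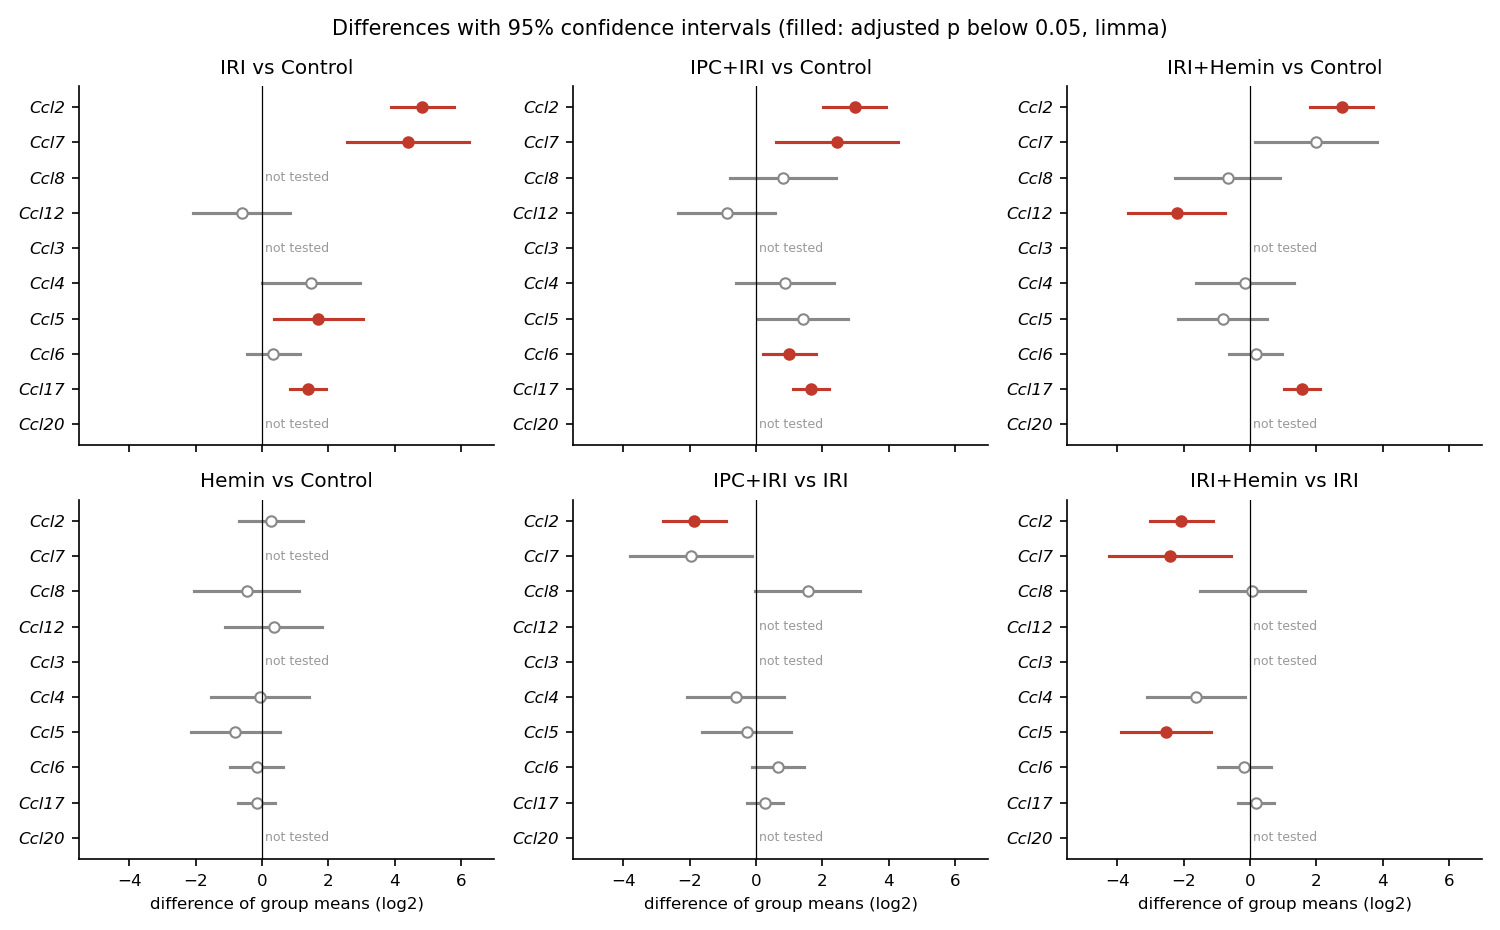
Differences of group means (log2, horizontal axis) with 95% confidence intervals in 6 comparisons for the genes tested in each, the others being marked as not tested (Ccl3 and Ccl20 throughout), with filled points at an adjusted p below 0.05 in limma. Ccl2 at 4.83 leads in IRI vs Control, and no gene is filled in Hemin vs Control. For Ccl7 in the injured groups against Control and Ccl12 in IRI+Hemin the dim group gives only a limit, so the bounds in the text replace the plotted folds.

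Ccl3, Ccl4 and Ccl5, which attract macrophages, T cells and NK cells, divided the IRI arrays into 2 pairs. Ccl5 was 1.46 and 2.03 on IRI replicates 1 and 2, and -0.72 and -1.23 on replicates 3 and 4, against -1.12, -1.79, -0.75 and -1.61 in Control. Ccl4 was -1.20 and 0.17 on the same first pair and -3.77 and -3.97 on the second, against -3.85 to -3.38 in Control. Ccl3 was well above background on IRI replicates 1 and 2, at -3.50 and -3.01, and on neither of the others. In the IPC+IRI group, replicates 2 and 3 were the high ones for all 3 genes, with 0.46 and 1.79 for Ccl5, -2.20 and -1.95 for Ccl4, and -3.31 and -3.53 for Ccl3. Deviations from the group means ran together, with a Pearson r of 0.86 for Ccl4 and Ccl5, 0.84 for Ccl3 and Ccl4 and 0.79 for Ccl3 and Ccl5 over 20 arrays that share RNA, slide and scaling.

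Ccl5 was called higher in IRI vs Control, by 1.71 ± 0.64 (SE, adjusted p = 0.0333, limma), although 2 of 4 arrays lay in or near the Control range. The exact two-sided permutation test over the 8 arrays gave p = 0.114, where 0.0286 is the smallest possible. The call was lost without IRI replicate 1 or 2 (adjusted p = 0.111 and 0.133) and without Control replicate 2 or 4. It was also lost after normexp (0.0853), with the deposited matrix (0.0561), without the filter on dim genes (0.0507), in a fit of the compared arrays alone (0.0651), in SAM and in the methods' t-test. In IRI+Hemin, Ccl5 was -2.38, -2.21, -2.63 and -1.35, below every IRI array, and was 5.77-fold lower than in IRI (adjusted p = 0.00402). SAM as run here did not give that call, and neither did the methods' t-test after Benjamini-Hochberg (adjusted p = 0.0654). It was also lower than in IPC+IRI, whose difference from IRI+Hemin was 2.25 ± 0.64 (adjusted p = 0.0302). This call was lost when any 1 of 5 arrays was left out, with an adjusted p up to 0.0924, and without normalization (0.0555), in a fit of the compared arrays alone (0.0743), in SAM and in the t-test after Benjamini-Hochberg (0.142). IPC+IRI vs IRI gave -0.28, with an interval from -1.63 to 1.06. Hemin arrays, from -2.37 to -1.89, lay below the Control range, yet the difference of -0.80 did not pass the test (adjusted p = 0.346). A fit of these 8 arrays alone called it (adjusted p = 0.0226). In IPC+IRI vs Control, Ccl5 gave 1.43 (adjusted p = 0.0673), and passed without IPC+IRI replicate 1 (1.86, adjusted p = 0.0234), without normalization (1.86, adjusted p = 0.0146) and with the brightest probe (1.61, adjusted p = 0.04).

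The probes of Ccl5 moved together, with IRI minus Control at 1.84 and 1.66 and IRI+Hemin minus IRI at -3.28 and -2.26. They differed in IPC+IRI minus IRI, at -0.89 for A_51_P485312 and -0.05 for A_52_P638459. Ccl4 was above background on all 20 arrays and passed no test, with 1.48 in IRI vs Control (adjusted p = 0.088) and -1.62 in IRI+Hemin vs IRI (adjusted p = 0.0687). It was called in IRI vs Control after quantile normalization (adjusted p = 0.0281), and in both comparisons when IRI replicate 3 or 4, the low pair, was left out. In IRI+Hemin vs IRI it was also called after normexp (adjusted p = 0.0331) and without IRI+Hemin replicate 2 (adjusted p = 0.0375). Ccl3 never reached 3 arrays above background in a group and was not tested.

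**Figure D3:**
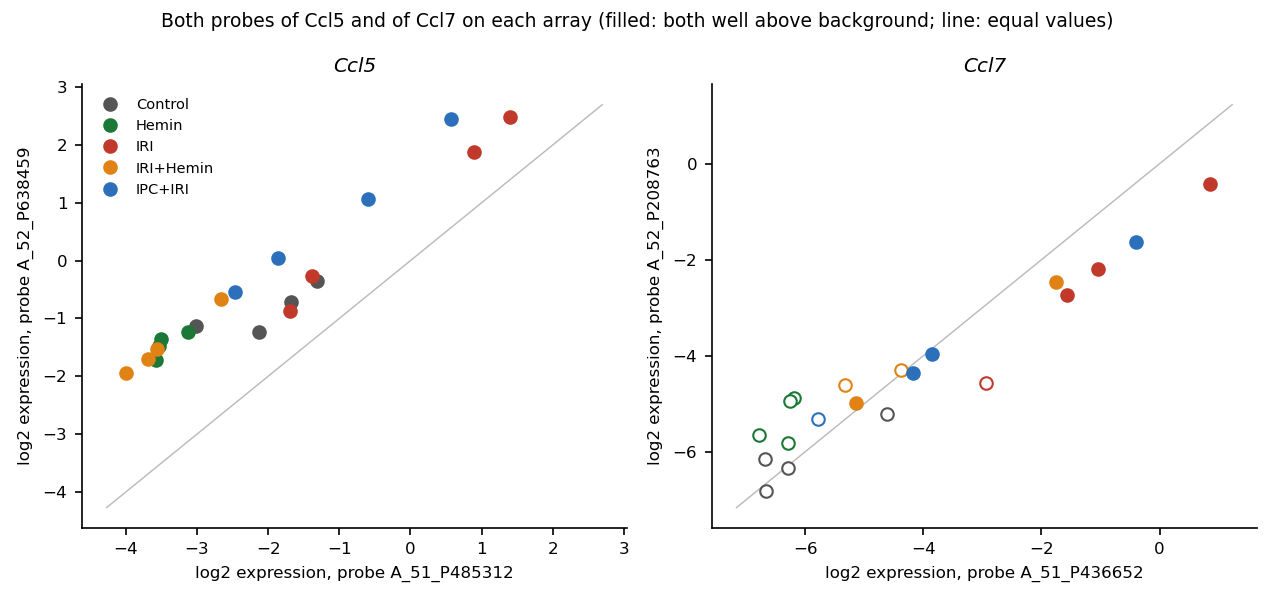
Log2 expression of the first probe (horizontal axis) against the second (vertical axis) for Ccl5 and Ccl7 on each array, colored by group. Filled points have both probes well above background, and the line marks equal values. Both probes of Ccl5 rise together across arrays, and for Ccl7 3 of the 4 IRI arrays have both probes well above background, while no Control array does.

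Leukocyte markers were summed on the same arrays. The 6 T cell markers, 5 or more of them well above background on 3 of 4 IRI arrays, summed to between 0.32 and 0.36 times the 75th percentile in IRI, to between 0.25 and 0.35 in IRI+Hemin and to between 0.45 and 0.50 in Control. The 4 NK cell markers, of which Ncr1 was above background on no array, summed to 0.18 and 0.17 on IRI replicates 1 and 2 and to 0.15 and 0.12 on replicates 3 and 4, and 3 of these 4 sums lay within the Control range of 0.139 to 0.181. In IRI+Hemin the NK sums were between 0.0812 and 0.123. In IRI+Hemin vs IRI 2 of 3 NK markers tested were called lower (Nkg7 by 1.15, and Klrb1c), as was 1 of 6 T cell markers (Cd3d). Among all genes tested 18.1% were called lower there, which is close to the share of the T cell markers. Klrb1c and Cd3d have no fold here because each was well above background on 2 of 4 IRI+Hemin arrays. In IPC+IRI vs IRI+Hemin, where Ccl5 was also higher, 2 of 6 T cell markers (Cd3d and Cd8a) and 1 of 3 NK markers (Nkg7, by 1.34) were called higher. The share over all genes tested was 6.43%. In IPC+IRI, replicates 2 and 3 had the highest sums of both lists, at 0.55 and 0.81 for T cells and 0.27 and 0.27 for NK cells. The 5 neutrophil markers on the array, with most of each sum from S100a9, summed to between 0.23 and 0.56 in Control, 2.47 and 8.12 in IRI, 2.14 and 9.61 in IRI+Hemin and 6.34 and 19.4 in IPC+IRI. All 5 were called higher in IPC+IRI vs Control, 4 of 5 in IRI+Hemin vs Control, and both of the 2 tested in IRI vs Control. The shares of all genes called higher were 23.3%, 24.4% and 17.1% in the same order. Neutrophil sums on IRI replicates 1 and 2 were 6.85 and 8.12, against 4.14 and 2.47 on replicates 3 and 4. The part of these markers in the levels of Ccl3, Ccl4 and Ccl5 was not tested.

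**Figure D4:**
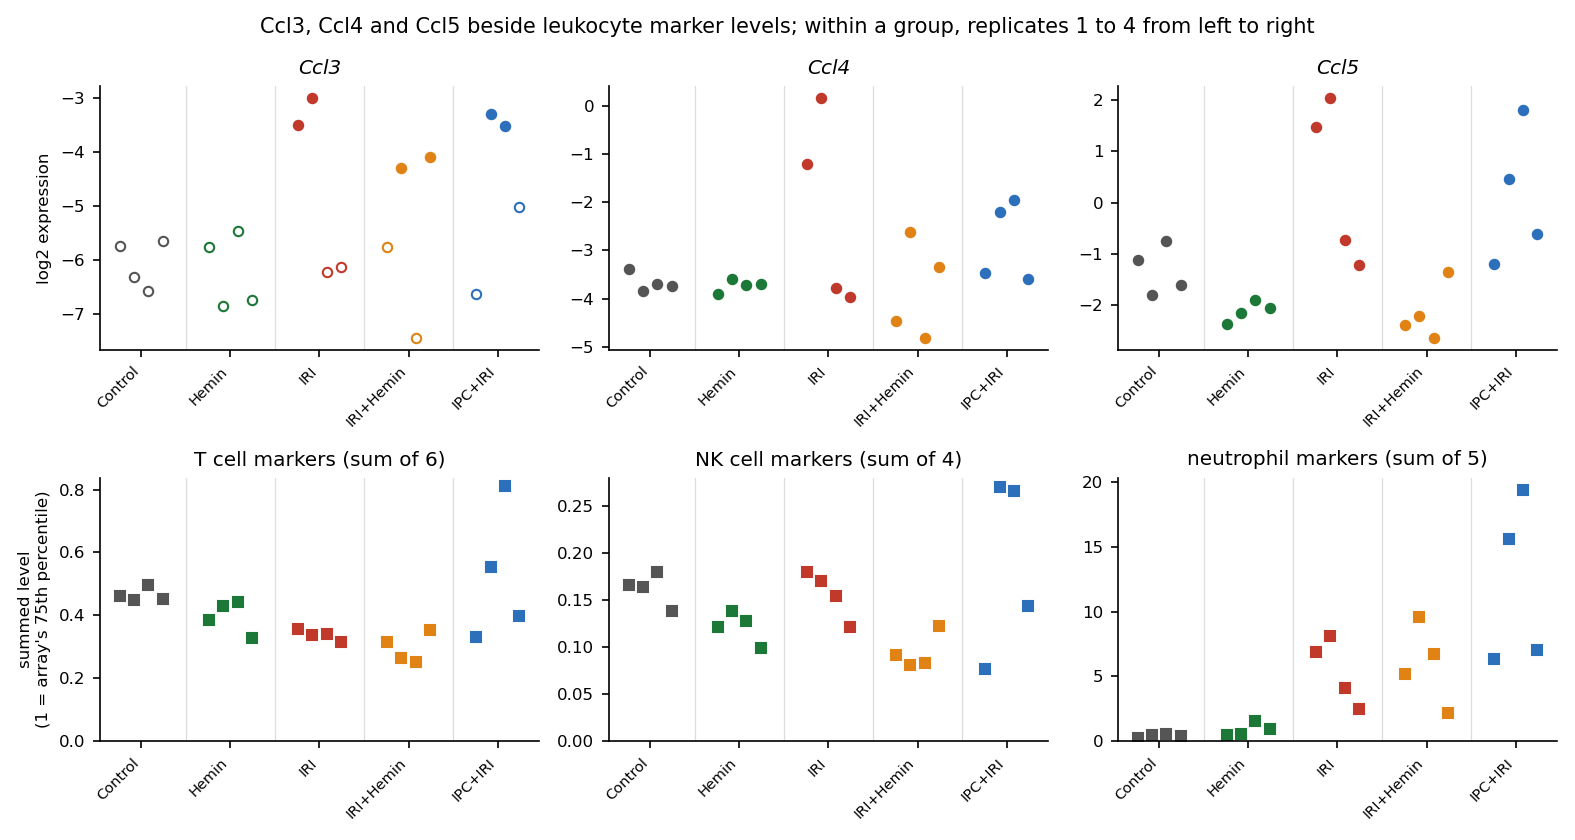
Top, log2 expression of Ccl3, Ccl4 and Ccl5, with open points not well above background. Bottom, summed level of T cell, NK cell and neutrophil markers (1 is the 75th percentile of the array), with the same group columns and replicates 1 to 4 from left to right. IRI replicates 1 and 2 and IPC+IRI replicates 2 and 3 are the high arrays of their groups for Ccl3, Ccl4 and Ccl5, and the T cell sum in IRI stays between 0.32 and 0.36.

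Ccl6, made by myeloid cells, was called higher in IPC+IRI, and the call depended on the setting. Values were -1.70, 0.52, 0.08 and -0.44, so that 3 arrays lay above all Control arrays (-1.69 to -1.13) and replicate 1 lay below them. The difference from Control was 1.01 ± 0.38 (SE, adjusted p = 0.031, limma), and 1.16 ± 0.38 from Hemin (adjusted p = 0.0232). Without replicate 1 the difference from Control was 1.45 (adjusted p = 0.000938), and without replicate 2 it was 0.70 (adjusted p = 0.124). Leaving out replicate 3, or Control replicate 3 or 4, also ended the call against Control. So did normexp (0.0504), the deposited matrix (0.058), the percentile over probes well above background on all arrays (0.0582), a fit of the compared arrays alone (0.0729), SAM, the fold cutoff of the study and the methods' t-test, and the exact two-sided permutation test gave p = 0.143. The call against Hemin ended without IPC+IRI replicate 2 or 3 or Hemin replicate 1, at adjusted p values up to 0.0938, and without normalization (0.0826), with the deposited matrix (0.0523), in a fit of the compared arrays alone (0.0583), in SAM and in the t-test. Neither IRI nor IRI+Hemin differed from Control in Ccl6 by the test (differences 0.34 and 0.18). Without IPC+IRI replicate 1, Ccl6 was also higher in IPC+IRI than in IRI, by 1.10 (adjusted p = 0.0099), and than in IRI+Hemin, by 1.27 (adjusted p = 0.0188). Of the 7 macrophage and monocyte markers, 3 were called higher in IPC+IRI vs Control (Lyz2, lysozyme, by 2.04, Cd68 by 1.41, and Itgam, with 2 of 4 Control arrays not well above background). Cx3cr1, a receptor of resident mononuclear cells, was called lower, with 2 of 4 IPC+IRI arrays not well above background. Across the array, that comparison gave a higher call to 23.3% of tested genes and a lower call to 32.7%. On IPC+IRI replicates 1 to 4 Lyz2 was 2.09, 3.80, 4.16 and 2.81 and Cd68 was -2.17, -0.90, -0.95 and -0.47, so that replicate 1 was the lowest array of its group for both. Their part in the level of Ccl6 was not tested.

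Ccl17, which attracts Ccr4-bearing T cells, rose in all 3 injured groups, and those groups overlapped one another. Control was -3.92, -3.74, -4.22 and -4.60, and Hemin ran from -4.40 to -4.21. IRI gave -2.93, -2.40, -2.66 and -2.93, IRI+Hemin gave -2.63, -2.27, -2.80 and -2.47, and IPC+IRI gave -3.07, -2.55, -1.43 and -2.77. The 12 arrays of the injured groups lay above the 8 others. The fold over Control was 2.61 in IRI (adjusted p = 0.000285), 3.17 in IPC+IRI (adjusted p = 4.54e-05) and 2.98 in IRI+Hemin (adjusted p = 7.22e-05), where Control replicate 4, its lowest array, was not well above background. IRI+Hemin minus IRI was 0.19 with an interval from -0.36 to 0.74, and IPC+IRI minus IRI was 0.28 with an interval from -0.27 to 0.83. After normexp correction the 3 differences from Control were 0.52, 0.37 and 0.25, and none passed the test, while those from IRI turned to -0.27 and -0.15. On these scaled values SAM gave no call in IPC+IRI vs Control. The fold cutoff of the study gave none in IRI or IPC+IRI vs Control. The study itself lists Ccl17 as higher in IPC+IRI vs Control. Ccl20, a ligand of Ccr6, was not well above background on any of the 20 arrays.

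Counted over the family, 4 of 7 genes tested were higher in IRI vs Control (Ccl2, Ccl5, Ccl7 and Ccl17) and none was lower, where 17.1% of all genes tested were called higher and 33.9% lower. The median difference was 1.48 over the 7 genes and -0.17 over all. In IPC+IRI vs Control 4 of 8 were higher (Ccl2, Ccl6, Ccl7 and Ccl17), against 23.3% higher and 32.7% lower among all genes. In IRI+Hemin vs Control, Ccl2 and Ccl17 were higher and Ccl12 lower out of 8 (24.4% and 33.2% of all genes). Hemin vs Control gave no call among 7 tested (18.5% and 17.6%), with Ccl5 the 1 gene past an unadjusted 0.05 in the methods' t-test. Ccl7 in IRI and IPC+IRI vs Control entered only through the injured group. Likewise Ccl12 entered IRI+Hemin vs Control and vs Hemin only through the group without injury. The direction of these calls follows from the filter on dim genes, and the counts and medians include them. The same filter applied to all genes.

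Against IRI, 1 of 7 was lower in IPC+IRI (Ccl2), where 17.9% of all genes were called lower and 26.3% higher. In IRI+Hemin vs IRI 3 of 7 were lower (Ccl2, Ccl5 and Ccl7), against 18.1% lower and 26.3% higher among all genes, with a median of -1.62 over the 7 and 0.08 over all. IRI+Hemin vs Hemin gave Ccl2 and Ccl17 higher and Ccl12 lower among 8 (16.5% and 27.9%). In IPC+IRI vs Hemin, 2 groups scanned on the same day, 4 of 8 were higher (Ccl2, Ccl5, Ccl6 and Ccl17), against 13.2% higher and 22.8% lower among all genes. IPC+IRI vs IRI+Hemin gave 1 of 7 higher (Ccl5), against 6.43% and 5.62%.

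The effect of IRI was then compared between mice with and without Hemin, as IRI+Hemin minus Hemin less IRI minus Control. Of 8 genes tested, Ccl2 was called, with a rise smaller by 2.34 ± 0.65 on the log2 scale in the mice given Hemin (SE, adjusted p = 0.0323, limma), while 1.96% of all genes had a lower and 5.83% a higher response. Its call was lost when any 1 of 7 arrays was left out, at an adjusted p of up to 0.0747, and also after normexp (-1.55, adjusted p = 0.145), without normalization (0.0709) and with the deposited matrix (0.0578). Over all 16 arrays left out in turn the difference ran from -2.62 to -2.14. Ccl5 gave -1.73 (adjusted p = 0.275). Ccl7 was not called (adjusted p = 0.199), and its difference is not given because Control and Hemin, with 0 and 1 of 4 arrays above background, set only a limit. The comparisons named here share groups, so their counts are not independent.

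Of the other 14 CC ligands, 10 were on the array. Ccl9, a relative of Ccl6, rose in IRI vs Control by 1.77 (adjusted p = 0.0037) and in IPC+IRI vs Control by 1.35 (adjusted p = 0.019). Its lowest injured array was IPC+IRI replicate 1, at -3.21, below all Control arrays. Ccl11, the eosinophil attractant eotaxin, was called higher in IRI vs Control (adjusted p = 0.0165), with 3 of 4 IRI arrays above background and 1 of 4 Control arrays, so that no fold is given. Ccl25 and Ccl27a, attractants to gut and skin, fell by 0.53 and 0.76 in IRI vs Control and were higher than IRI in IPC+IRI, by 0.80 and 0.52, and in IRI+Hemin, by 0.44 and 0.86. Ccl25 was called higher in Hemin vs Control by 0.67 (adjusted p = 0.0013). Ccl1 and Ccl22, the latter also a Ccr4 ligand, were not well above background on any array.

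Of 11 CC receptors on the array, 6 were tested in IRI vs Control, where 3 were called lower and none higher, against 33.9% lower and 17.1% higher among all genes. Those 3 were Ccr6, the Ccl20 receptor, by 1.61, Ccr9, the Ccl25 receptor, by 0.98, and Ccr3, the eotaxin receptor, which was not well above background on any IRI array. Ccr6 and Ccr9 also fell in Hemin vs Control, by 1.43 and 0.83, and in IPC+IRI and IRI+Hemin vs Control. Of the 4 B cell markers 3 were tested against Control. All 3 were lower in IRI, in IPC+IRI and in IRI+Hemin, and 2 of the 3 in Hemin. Of all genes tested, 33.9%, 32.7%, 33.2% and 17.6% were called lower in these comparisons. The list summed to values from 0.42 to 0.53 in Control, 0.23 to 0.25 in IRI, 0.14 to 0.20 in IRI+Hemin, 0.14 to 0.30 in IPC+IRI and 0.30 to 0.37 in Hemin, and its part was not tested.

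Ccr2, the receptor of Ccl2, Ccl7 and Ccl12, was -3.97, -4.11, -4.21 and -3.94 in Control and -4.07, -4.46, -4.83 and -4.96 in IRI. In IPC+IRI it was -4.98 on replicate 1 and -2.39, -2.89 and -2.54 on the others. It was higher in IPC+IRI than in IRI by 1.38 ± 0.42 (SE, adjusted p = 0.0128) and than in IRI+Hemin by 1.48 ± 0.42 (adjusted p = 0.03), while Ccl2 was lower in IPC+IRI than in IRI. Ccr4, the receptor of Ccl17, was above background on 3 of 20 arrays, and Ccr1, Ccr8 and Ccr10 on none. Of the 4 atypical receptors, which do not signal through G proteins, Ccrl2 was called lower in IRI+Hemin vs Control, by 1.03 (adjusted p = 0.0095).

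**Figure D5:**
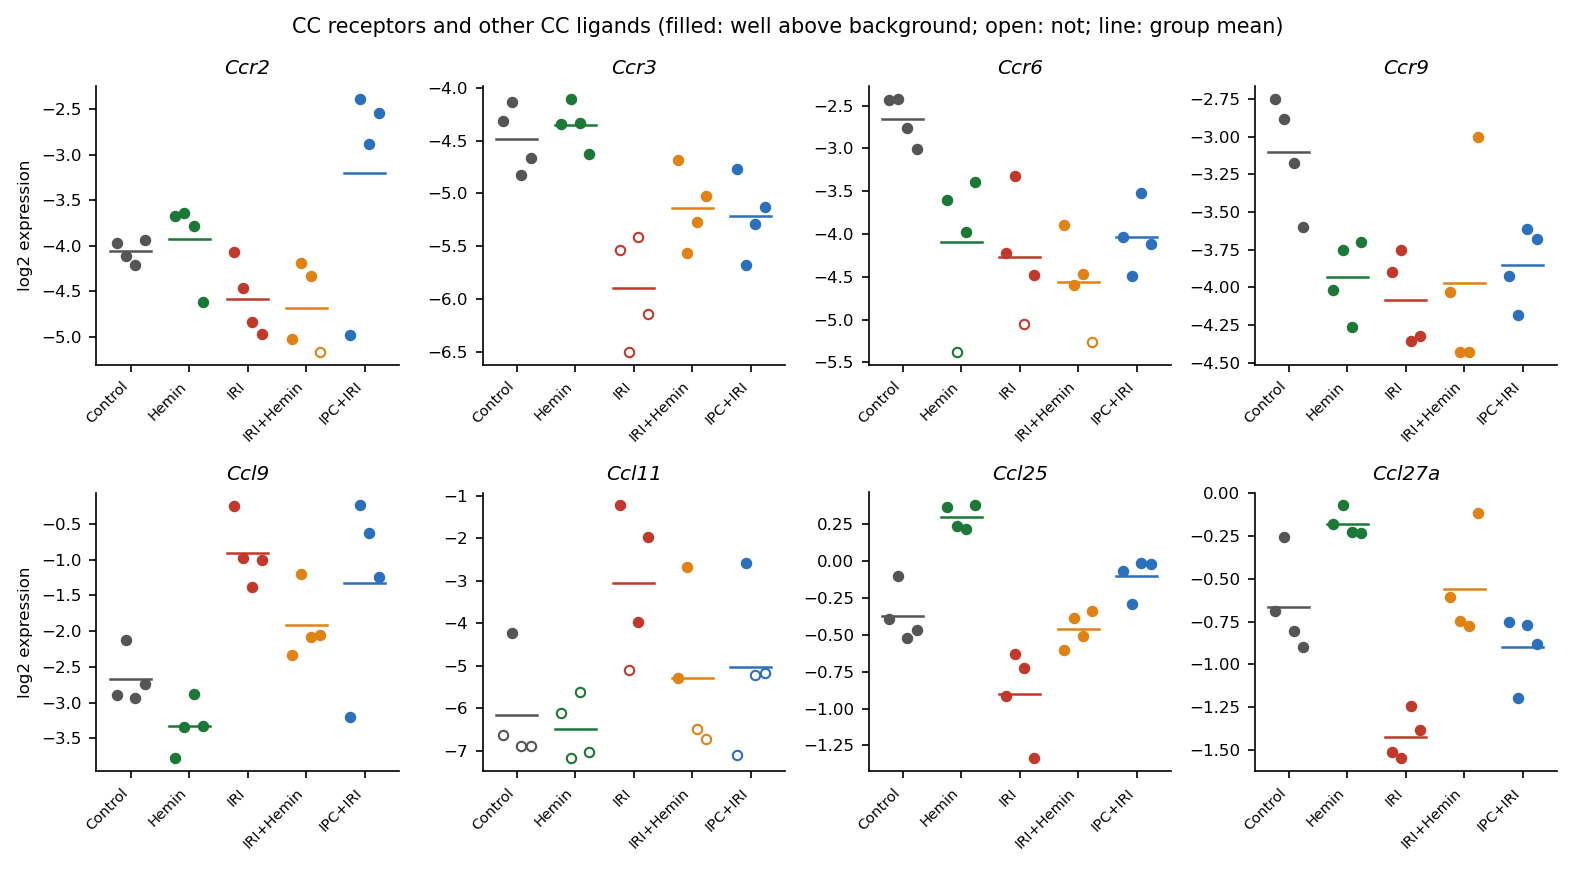
Log2 expression of 4 CC receptors and 4 further CC ligands on every array, by group, with open points not well above background and lines at group means. Ccr2 lies between -2.89 and -2.39 on 3 IPC+IRI arrays and at -4.98 on the fourth, and Ccr6 is lower in the other groups than in Control, where its highest array is at -2.42.

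The genes whose levels ran most like the 3 chemokines with the widest range of group means were taken from 19107 candidates by Pearson correlation over the 20 arrays. For Ccl2 they were Csf1 (r = 0.97), a growth factor of macrophages, Akap12 (0.95) and Il1r1, the interleukin 1 receptor (0.95). For Ccl7 they were Il1r1 (0.91), Vim (0.89) and Il1rl2 (0.87). Ccl12 came next with a range of 2.57, just ahead of Ccl5 at 2.53, but its lowest mean is that of IRI+Hemin, where no array was well above background, so its rank is uncertain and no genes are listed for it. Values not well above background entered as measured, which touches Ccl7 in Control, in Hemin and on IPC+IRI replicate 1. The correlations include the differences between groups. For deviations from the group means the correlation of Ccl2 with Csf1 was 0.75 and with Il1r1 0.84, and that of Ccl2 with Ccl6 was 0.90. Ccl2 and Ccl7 had r = 0.91 over all arrays and 0.82 within groups.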

How the data were processed

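Kidney RNA was labeled with Cy3 and hybridized to Agilent whole mouse genome arrays. The intensity values are the processed signals of Agilent Feature Extraction 9.5.3.1, deposited by the authors as 1 scanner file per array, background-subtracted and detrended within the array. The log2 values of the deposited matrix were made by the authors from the same signals, with no scaling between arrays and 18.1% of cells blank. The matrix served as an alternative.

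Control spots and outlier spots (0.208%) were left out, spots of a probe and probes of a gene were averaged, and signals were divided by the 75th percentile of the array (146.7 to 357.9) before the log2 step. The number of arrays limits the precision. Tests used limma 3.58.1 in R 4.3.3 with 5 group means and Benjamini-Hochberg adjustment, and exact two-sided permutation tests for single genes. The procedure was tested on simulated data. "At least" folds use the lowest signal well above background on each array of the dim group. They do not allow for the spread between arrays and are not lower confidence limits. The members and gene lists were chosen with earlier results of these data known. Named genes were all 10 members, at most the 3 largest rises and falls per list, and the receptors of the members. Alternatives were normexp correction (offset 50), other scalings, probe rules, filters, thresholds and tests, a replicate block, and leaving out each array. SAM and a t-test are named in the study's methods and were run here on the scaled and filtered values. Calls lost in them are therefore not the study's own results. The study lists Ccl2 and Ccl17 as higher in IPC+IRI vs Control and Ccl5 as lower in IRI+Hemin vs IRI. Not every gene of the lists is reported here by name.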

Additional observations from a re-analysis of the deposited data

Results flagged for a closer look

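Of 50 combinations of a chemokine and a group, 3 held an array far from the other 3 by Dixon's test (critical value 0.829), which chance gives in about 1 of 20 groups. Ccl8 was -2.77 on Control replicate 2, with the nearest array at -4.22, and neither that array nor replicate 4 was well above background. Ccl12 was -4.80 on Control replicate 3, where it was not well above background, with the nearest at -3.93. Ccl12 was -3.06 on IRI replicate 1, the nearest of the other 3 arrays, none well above background, being -5.21.

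The response of Ccl2 to IRI differed between mice with and without Hemin by -2.34 on the log2 scale in the test of the interaction (adjusted p = 0.0323, limma). The call was lost after normexp (adjusted p = 0.145), without normalization (0.0709), with the deposited matrix (0.0578) and when any 1 of 7 of the 16 arrays was left out.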

How the results depend on the processing

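No called difference changed direction in any alternative. The numbers of chemokines called were as follows. Normexp correction gave 2 in IRI vs Control, 1 in IPC+IRI vs Control, 1 in IRI+Hemin vs Control, 1 in IRI+Hemin vs Hemin and 0 in the interaction. The deposited matrix gave 2 in IRI vs Control, 2 in IPC+IRI vs Control and 0 in the interaction, and it tests fewer genes. Requiring all arrays above background gave 2, 2 and 1 in IRI, IPC+IRI and IRI+Hemin vs Control. The fold cutoff stated in the study gave 2 in IPC+IRI vs Control. SAM as run here gave 0 in IPC+IRI vs Control, 0 in IPC+IRI vs IRI and 1 in IRI+Hemin vs IRI. It gave 1 in IPC+IRI vs Hemin and 0 in IPC+IRI vs IRI+Hemin. The methods' t-test gave 2 in IPC+IRI vs Control and 1 in Hemin vs Control without adjustment. After Benjamini-Hochberg it gave 2 in IPC+IRI vs Control, 0 in IPC+IRI vs IRI, 1 in IRI+Hemin vs IRI and 0 in IPC+IRI vs IRI+Hemin. A fit of the compared arrays gave 1 in Hemin vs Control and 0 in IPC+IRI vs IRI+Hemin. No normalization gave 0 in IPC+IRI vs IRI+Hemin and in the interaction. Apart from the smaller set of genes in the matrix and under the filter, the cause was not tested.

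Leaving out 1 array gave 3 to 5 in IRI vs Control, 2 to 5 in IPC+IRI vs Control, 1 to 2 in IPC+IRI vs IRI, 2 to 4 in IRI+Hemin vs IRI, 3 to 4 in IRI+Hemin vs Control, 3 to 5 in IPC+IRI vs Hemin, 0 to 2 in IPC+IRI vs IRI+Hemin and 0 to 1 in the interaction. Same-numbered arrays deviated together with r from -0.33 to 0.21 (median -0.02), so the numbers do not pair them, and with the replicate block the count was 4 in IRI vs Control, 4 in IPC+IRI vs Control and 1 in the interaction. Slide as a random block was not run. Scaling moved the split of all calls. Without normalization 94.7% of calls in Hemin vs Control were higher, against 51.3% with it, and 90.7% against 59.5% in IPC+IRI vs IRI, with median shifts of 0.62 and 0.41. Normexp turned the split in IRI vs Control from 33.5% to 56.2% higher. Dim genes (Ccl3, Ccl7, Ccl8, Ccl12) lie near background, which limits their folds.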
